A study of Mus musculus with 6 samples.

Results

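The G protein gamma subunits were examined in brain tissue, given as cerebellum in the title of the series, from 3 wild-type mice and 3 mice lacking Gb5. Members were all probes that the array annotation assigns to 1 gene symbol only, for the 10 genes Gng2, Gng3, Gng4, Gng5, Gng7, Gng8, Gng10, Gng11, Gng12 and Gng13. This gave 16 probes for 9 of the 10 genes, of 45037 probes and 18193 genes in all. Gng5 had no such probe, because its 3 probes are also annotated to the pseudogene Gng5-ps. Each mouse gave 1 single-colour array, and the deposited values are log2 signals, so that a difference of 1 is a doubling. The labels name wild-type and Gb5-deficient genotypes and cohorts of littermates matched for age and sex. They give no age, strain, sex or way of deletion, and do not say which mice were littermates.

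A heterotrimeric G protein consists of an alpha subunit and a tightly bound pair of a beta and a gamma subunit. The gamma subunit is a small protein that carries a lipid group at its C terminus and so holds the pair at the membrane, where the freed beta-gamma pair acts on potassium channels, calcium channels, phospholipases and adenylyl cyclases. Gb5, encoded by Gnb5, is the divergent beta subunit: its stable partners in brain are the R7 RGS proteins, whose G-gamma-like (GGL) domain takes the place of a gamma subunit. The comparison addresses the level of the conventional gamma transcripts where Gb5 is absent.

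Array medians lay between 6.48 and 6.57, and Pearson's r over all probes between 0.991 and 0.997 for pairs of arrays. Gnb5, the gene missing from the knockout, checks the labels, and its brightest probe gave 8.80, 8.51 and 8.70 on the wild-type arrays, against 3.65, 3.36 and 2.96 on the knockout arrays. Cerebellar markers were bright, with wild-type means of 12.98 for Calb1 (Purkinje cells) and 13.23 for Cbln1 (granule cells). Knockout array 6 stood apart: all 3 Xist probes were low there (6.64 against 11.11 to 11.35 for the first) and a probe of the Y-linked gene Eif2s3y read 11.80 against 3.19 to 3.43, so sex was not the same on all knockout arrays. On that array the 3′ control probe of Gapdh exceeded the 5′ one by 1.58, against 1.03 to 1.14 on the others. The gamma gene differences are therefore also given without array 6. Only 3 arrays per genotype limit the precision.

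No gamma gene passed the test between genotypes. Of the 9 genes tested through their brightest probe, 0 had a limma adjusted p under 0.05, against 5 of all 14075 genes, or 0.0355%. None had an unadjusted limma p under 0.05, which 8.56% of all genes had. In none did the 3 knockout arrays lie all above or all below the 3 wild-type arrays, as they did in 14.9% of all genes. Knockout values were higher for 6 genes and lower for 3, with differences from -0.11 (Gng11) to 0.12 (Gng10) and a median of 0.02. The median over all 14075 genes was 0.03, and 56.7% of them had higher values. The adjusted p of the 9 genes ran from 0.618 to 0.970 (limma).

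**Figure D1:**
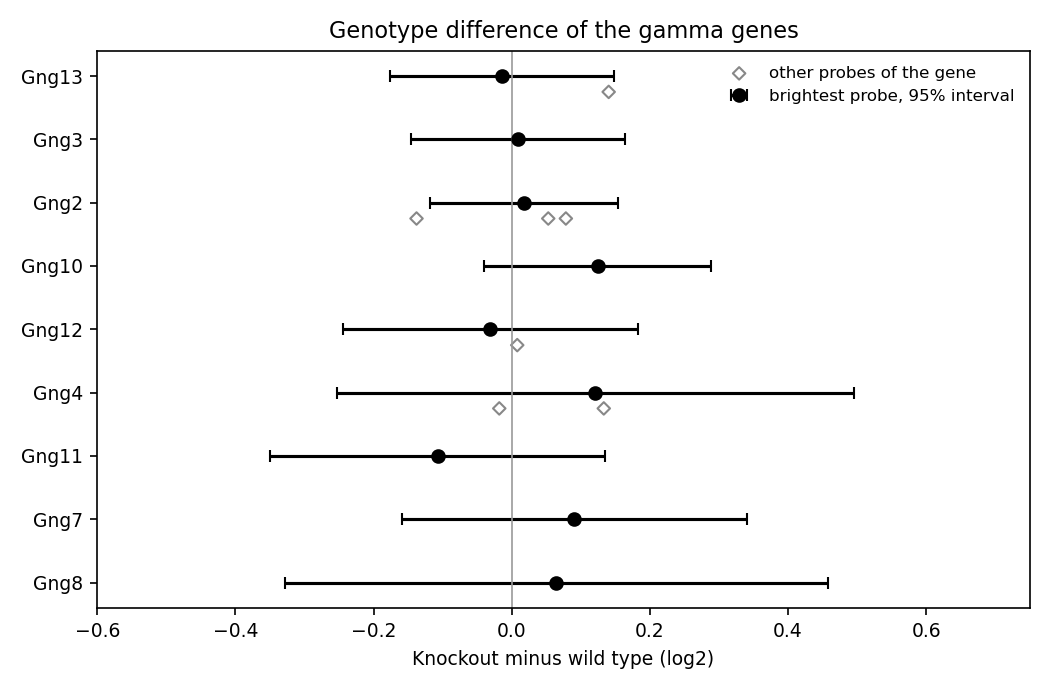
Difference between Gb5 knockout and wild type (x axis, log2) for the 9 gamma genes (y axis, in order of wild-type signal). Filled points are the brightest probe of each gene with its 95% interval from limma (n = 3 arrays per genotype), and open diamonds are its other probes. Every interval spans 0, from the narrowest at Gng2 to the widest at Gng8.

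The 95% intervals of the brightest probes show the range of difference left by these arrays for those probes. Over the 9 genes they reached no lower than -0.35 (Gng11) and no higher than 0.49 (Gng4), which is 0.785-fold and 1.41-fold of wild type. For the 3 genes of brightest signal they were narrower. The interval for Gng2 ran from 0.922-fold to 1.11-fold, for Gng3 from 0.903-fold to 1.12-fold and for Gng13 from 0.885-fold to 1.11-fold. Other probes of the same genes left wider ranges: the dimmest Gng4 probe reached down to 0.745-fold and the middle one up to 1.43-fold, the dimmer Gng2 probes ran from 0.767-fold to 1.28-fold and the dimmer Gng13 probe up to 1.34-fold. The standard error of the difference was under the median of all genes (0.12) in 7 of the 9, with Gng4 (0.16) and Gng8 (0.17) above it. RMA values are quantile-normalized, so a shift shared by all transcripts would not be seen. In whole tissue, fewer cells of a type and less RNA per cell cannot be told apart.

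By wild-type signal the order was Gng13, Gng3, Gng2, Gng10, Gng12, Gng4, Gng11, Gng7 and Gng8. In the knockout arrays the order was the same except that Gng4 (11.63) stood above Gng12 (11.55). In wild type Gng12 and Gng4 were 0.07 apart and their arrays overlapped, and without wild-type array 1 Gng4 stood above Gng12. The wild-type arrays of every other pair of neighbours did not overlap, with gaps from 0.28 between Gng10 and Gng12 to 2.50 between Gng4 and Gng11. This is an order of probe signal and not of transcript amount, since probes differ in how brightly they report a transcript. The probes of single genes show how much: the 2 Gng13 probes averaged 13.06 and 6.19 in wild type, and the brightest and dimmest of 3 Gng4 probes 11.51 and 5.80. For Gng2 and Gng12 the gap between brightest and dimmest probe was 3.60 and 2.99.

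**Figure D2:**
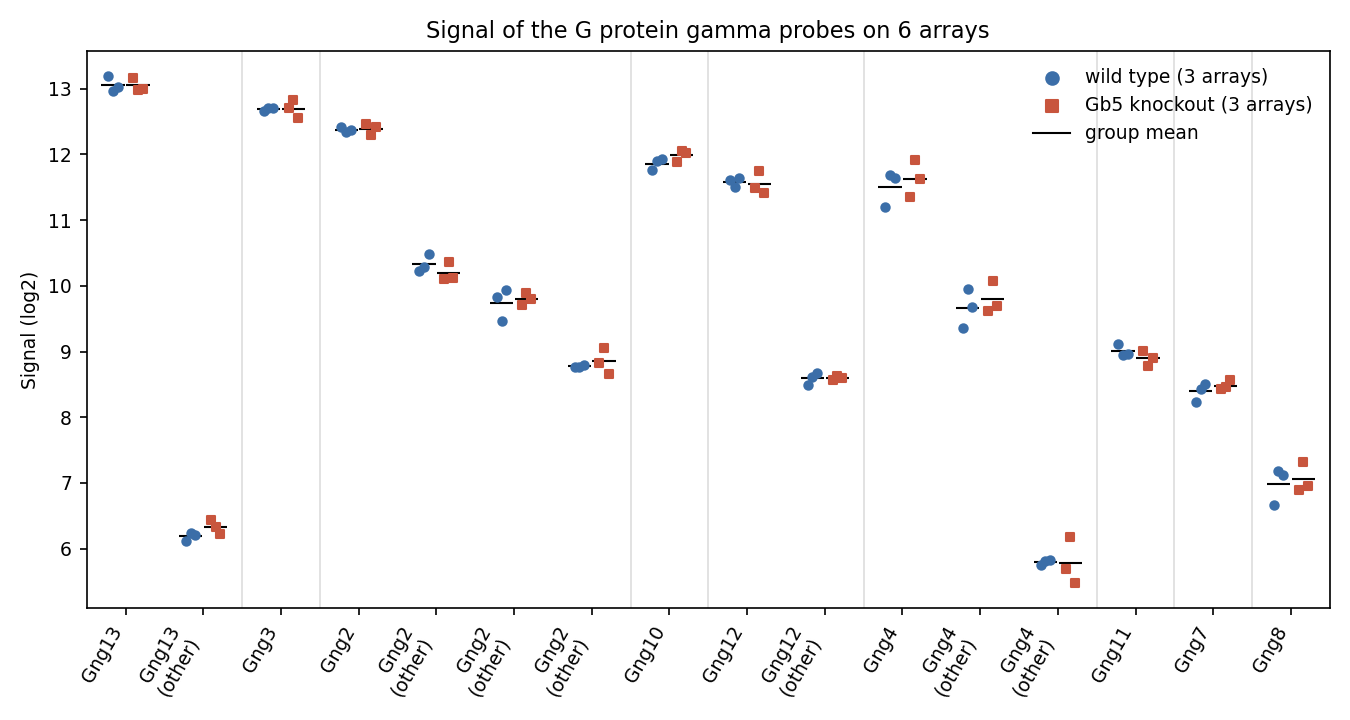
Signal (y axis, log2) of all 16 gamma probes (x axis, grouped by gene, brightest probe first) on the 3 wild-type arrays (circles) and the 3 knockout arrays (squares), with the mean of each group as a line. In every probe the 2 genotypes overlap, while probes of 1 gene lie up to 6.88 apart, as for Gng13.

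Gng13 encodes a gamma subunit known from taste cells and retinal ON bipolar cells, and it gave the brightest signal of the family. Its brightest probe gave 13.19, 12.97 and 13.03 on the wild-type arrays, against 13.16, 12.99 and 13.00 on the knockout arrays. The wild-type mean of 13.06 ± 0.11 (SD, n = 3) was at the 99.4th percentile over all probes, and the knockout mean was 13.05 ± 0.10 (SD, n = 3). The difference was -0.015 (SE 0.07; 95% interval from -0.18 to 0.15; limma adjusted p = 0.949), and 0.01 without knockout array 6. In each genotype the first array was the high one and the other arrays lay close together below it. The second probe, at the 46.6th percentile, gave 6.12, 6.24 and 6.21 on the wild-type arrays, against 6.44, 6.34 and 6.22 on the knockout arrays, a difference of 0.14 (limma adjusted p = 0.776 over every probe). The direction of Gng13 was thus not the same in both probes, and neither passed. In the RefSeq gene table Gng13 overlaps Chtf18, and the placement of the probes relative to that gene was not analysed here.

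Gng3 encodes a gamma subunit found mainly in neurons. Its single probe, at the 98.7th percentile, gave 12.66, 12.70 and 12.70 on the wild-type arrays, against 12.71, 12.82 and 12.56 on the knockout arrays. The wild-type arrays had an SD of 0.02, the smallest of the 9 genes, and the knockout arrays (SD 0.13) lay on both sides of them. The difference was 0.0085 (SE 0.07; limma adjusted p = 0.970), and 0.08 without knockout array 6. Gng3 overlaps Bscl2 in the RefSeq gene table, so a contribution of that transcript to the probe cannot be judged from these values.

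Gng2 encodes a gamma subunit abundant through the brain and commonly used as the partner in studies of recombinant beta-gamma. Its 4 probes gave the closest look at 1 gene. The brightest gave 12.41, 12.34 and 12.37 on the wild-type arrays, against 12.46, 12.30 and 12.42 on the knockout arrays, a range of 0.16 over all 6 arrays. The difference was 0.02 (SE 0.06; limma adjusted p = 0.925), and 0.0030 without knockout array 6. The next probe read 10.23, 10.29 and 10.48 against 10.11, 10.36 and 10.11, a difference of -0.14, the lowest value among the 16 probes. A dimmer one read 9.82, 9.47 and 9.94 against 9.71, 9.89 and 9.80, and the dimmest 8.76, 8.76 and 8.80 against 8.83, 9.06 and 8.66. Their differences were 0.05 and 0.08. The probes of Gng2 thus had values on both sides of 0, and none passed when every probe was tested (lowest limma adjusted p = 0.756).

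Gng7 encodes the gamma subunit best known from striatal neurons, where it serves the G protein that couples dopamine and adenosine receptors to adenylyl cyclase. Here its single probe was at the 70.0th percentile. It gave 8.24, 8.44 and 8.50 on the wild-type arrays, against 8.43, 8.46 and 8.56 on the knockout arrays. Wild-type array 1 was the lowest of the 6, and the other 5 lay close together. The difference was 0.09 (SE 0.11; limma adjusted p = 0.775), and it was 0.01 without wild-type array 1 and 0.05 without knockout array 6.

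Gng4, a gamma gene of the nervous system, had the widest range of the 9 genes over the arrays, 0.71. Its brightest probe, at the 94.3rd percentile, gave 11.20, 11.69 and 11.64 on the wild-type arrays, against 11.36, 11.91 and 11.62 on the knockout arrays. Wild-type array 1 and knockout array 4 were low and knockout array 5 was high, so the spread lay within each genotype (SD 0.27 and 0.28). The difference was 0.12 (SE 0.16; 95% interval from -0.25 to 0.49; limma adjusted p = 0.802). It was 0.26 without knockout array 4, -0.03 without wild-type array 1, -0.02 without knockout array 5 and 0.12 without knockout array 6. The identifier of this probe marks it as one that can report more than 1 transcript. The second probe gave 9.36, 9.95 and 9.67 on the wild-type arrays, against 9.61, 10.07 and 9.70 on the knockout arrays, and had the same lowest and highest arrays and a difference of 0.13. The dimmest probe read 5.75, 5.82 and 5.83 against 5.68, 6.18 and 5.48. It shared the high value of knockout array 5, but not the low value of wild-type array 1.

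Gng8 encodes a gamma subunit known from olfactory and vomeronasal sensory neurons. Its single probe was the dimmest of the 9 representatives, at the 55.3rd percentile, and gave 6.67, 7.18 and 7.12 on the wild-type arrays, against 6.90, 7.32 and 6.95 on the knockout arrays. The arrays stood in the same order as for Gng4: wild-type array 1 lowest, then knockout arrays 4 and 6, wild-type arrays 3 and 2, and knockout array 5 highest. Over the 6 arrays Pearson's r between Gng8 and Gng4 was 0.956 and Spearman's rho 1.00. Without the 2 arrays farthest from the Gng4 median r was 0.793. Pearson's r to Gng4 was -0.95 for Gng11, -0.92 for Gng13, 0.85 for Gng10 and -0.81 for Gng2. It was 0.68 for Gng7, 0.45 for Gng3 and 0.33 for Gng12. The share of all genes with an r as large was not counted. These values describe 6 arrays, and the pattern was noticed in the data. The genotype difference of Gng8 was 0.06 (SE 0.17; limma adjusted p = 0.903), with -0.09 without wild-type array 1, -0.07 without knockout array 5 and 0.12 without knockout array 6.

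**Figure D3:**
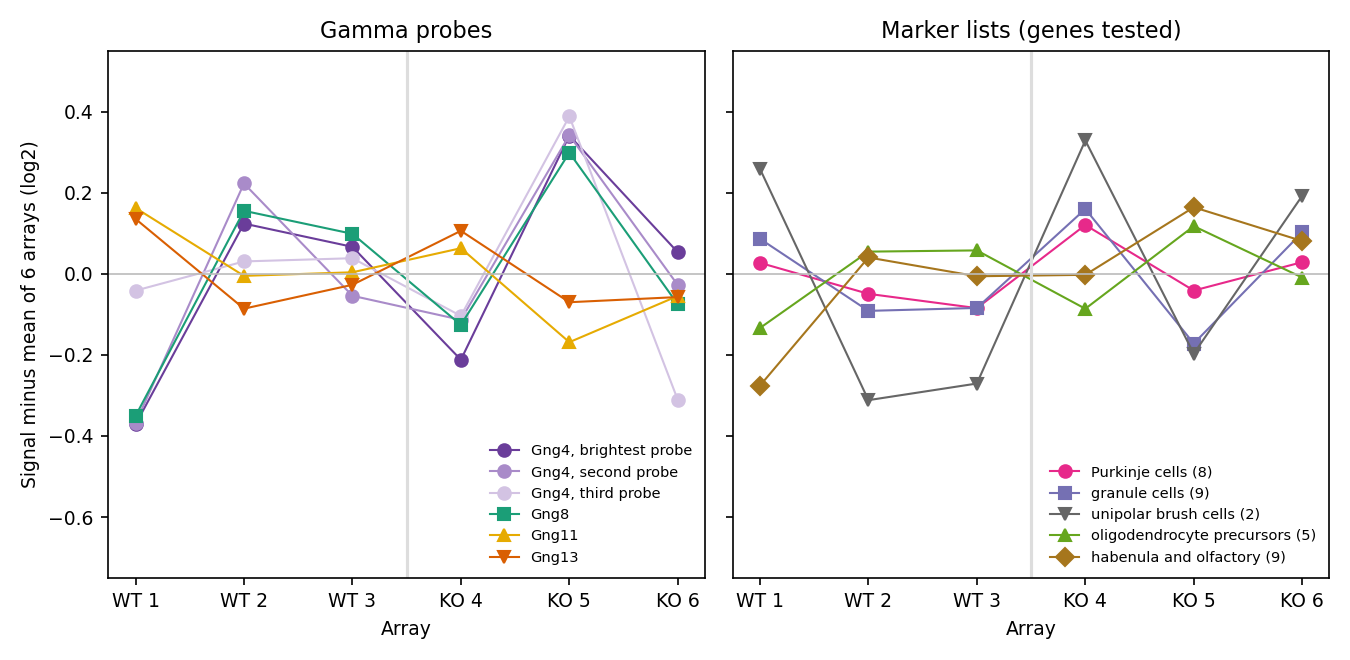
Signal of each array (x axis) minus the mean of all 6 arrays (y axis, log2), for the 3 Gng4 probes, Gng8, Gng11 and Gng13 (left) and for the mean of 5 marker lists (right, number of tested genes in brackets). Gng4 (brightest 2 probes) and Gng8 are low on wild-type array 1 and knockout array 4 and high on knockout array 5. Granule cell and unipolar brush cell markers are high on wild-type array 1 and on knockout arrays 4 and 6.

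Levels of marker genes differed between the same arrays. The mean of 9 granule cell markers was 11.65 and 11.73 on wild-type array 1 and knockout array 4, where Gng4 was low, and 11.39 on knockout array 5, where Gng4 was high. It was 11.47, 11.48 and 11.67 on wild-type arrays 2 and 3 and knockout array 6. Unipolar brush cell markers (2 measured of 5, Eomes and Calb2) averaged 10.06 and 10.13 on wild-type array 1 and knockout array 4 and 9.48 to 9.99 on the other 4 arrays. The 2 did not behave alike: Eomes was highest on wild-type array 1 (9.05) and knockout array 4 (9.22), and Calb2 on knockout array 6 (11.27). Oligodendrocyte precursor markers (5 measured of 6) averaged 9.71 and 9.76 on wild-type array 1 and knockout array 4, against 9.83 to 9.96. Markers listed for habenula and olfactory neurons (9 measured of 10) were lowest on wild-type array 1 (7.74) and highest on knockout array 5 (8.18). Choroid plexus markers (8 measured of 9) spanned 6.87 to 8.91, lowest on knockout array 4 and highest on wild-type array 1. Other lists also differed between arrays: those of Purkinje cells (11.74 and 11.83) and of Bergmann glia and astrocytes (12.13 and 12.14) had their highest means, or nearly so, on wild-type array 1 and knockout array 4, and so had that of inhibitory interneurons, which spanned 0.15 in all. Microglia markers were lowest on these arrays (8.09 and 8.02, against 8.18 to 8.28). Oligodendrocyte markers averaged 11.59 to 11.66 in wild type and 11.40 to 11.53 in knockout, and blood markers 8.65 to 8.94 and 8.06 to 8.37, lower on every knockout array. The part of these differences in the Gng4 and Gng8 values was not tested.

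Among all tested genes, the 3 with the highest Pearson's r to Gng4 over the 6 arrays were Minar2 (0.999), Grin2d (0.997), an NMDA receptor subunit, and Isoc1 (0.995). Spearman's rho was 1.00 for each, and r without wild-type array 1 and knockout array 5 was 0.997, 0.997 and 0.993. Since they were picked for this value among 14075 genes, no p is given. Minar2 gave 9.84, 10.58 and 10.54 on the wild-type arrays, against 10.07, 10.90 and 10.49 on the knockout arrays, a range of 1.06, wider than that of Gng4. Grin2d spanned 0.76 and Isoc1 0.31.

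The sequence before the starts of Gng4 and Gng8, which were low and high on the same arrays, is shown. Shared control of these genes was not tested. RefSeq windows were held for 9 of the 10 genes. The stretches below (build GRCm38.p6, plus strand, 5′ to 3′) end at the base before the first annotated base of each gene, chr13:13783809-13784058 for Gng4 and chr7:16891536-16891736 for Gng8. Capitals mark matches, on either strand, to the GC box GGGCGG, the CCAAT box CCAAT or the TATA box TATAAA.
Gng4: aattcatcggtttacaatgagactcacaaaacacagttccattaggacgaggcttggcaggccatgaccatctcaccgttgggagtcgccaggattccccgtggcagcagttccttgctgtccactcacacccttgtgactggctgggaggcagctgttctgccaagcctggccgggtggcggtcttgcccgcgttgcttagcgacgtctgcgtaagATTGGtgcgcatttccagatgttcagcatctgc
Gng8: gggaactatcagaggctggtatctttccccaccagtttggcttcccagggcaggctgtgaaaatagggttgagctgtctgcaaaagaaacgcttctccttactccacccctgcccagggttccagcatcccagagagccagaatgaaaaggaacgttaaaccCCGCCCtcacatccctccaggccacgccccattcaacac
The Gng4 stretch of 250 bases held 1 CCAAT box on the minus strand, starting 33 bases before the end, and the Gng8 stretch of 201 bases held 1 GC box on the minus strand, starting 39 bases before the end. Of 32851 RefSeq windows cut to 250 bases, 33.8% held a CCAAT box, and of those cut to 201 bases 24.8% held a GC box. Neither stretch held TATAAA, which 12.4% and 9.18% of windows of these lengths held. The 2 stretches shared none of these motifs, and the CG dinucleotide occurred 13 times in that of Gng4 and 4 times in that of Gng8.

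The other measured members are broadly expressed outside neurons. Gng10, a divergent gamma subunit found in many tissues, had the largest difference of the 9 genes. Its single probe, at the 96.0th percentile, gave 11.76, 11.89 and 11.92 on the wild-type arrays, against 11.89, 12.05 and 12.02 on the knockout arrays. Knockout arrays 5 and 6 lay above all wild-type arrays, and knockout array 4 lay below wild-type arrays 2 and 3. The difference was 0.12 (SE 0.07; 95% interval from -0.04 to 0.29; limma adjusted p = 0.618). It stayed between 0.08 and 0.17 with any single array left out (0.11 without knockout array 6), and did not pass in any of these fits (lowest limma adjusted p = 0.316). Gng10 follows the chaperone gene Dnajc25 in gene order.

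Gng12, a gamma subunit known from glia and many tissues outside the brain, had 2 probes. The brighter, at the 94.6th percentile, gave 11.61, 11.50 and 11.64 on the wild-type arrays, against 11.50, 11.74 and 11.42 on the knockout arrays. The knockout arrays held both the highest and the lowest of the 6 values. The difference was -0.03 (SE 0.09; limma adjusted p = 0.918), and 0.04 without knockout array 6. The other probe read 8.49, 8.61 and 8.67 against 8.56, 8.63 and 8.60, a difference of 0.008.

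Gng11, a widely expressed gamma subunit that carries a farnesyl lipid in place of the geranylgeranyl group of most gammas, had the lowest difference of the 9 genes. Its single probe, at the 75.9th percentile, gave 9.11, 8.95 and 8.96 on the wild-type arrays, against 9.01, 8.78 and 8.90 on the knockout arrays. Wild-type array 1 and knockout array 4 were the highest, the reverse of Gng4. The difference was -0.11 (SE 0.11; 95% interval from -0.35 to 0.14; limma adjusted p = 0.733), and it was negative with any single array left out, from -0.17 to -0.05 (-0.11 without knockout array 6). Markers of endothelial cells and pericytes (10 measured of 12) averaged 9.26 to 9.28 in wild type and 9.23 to 9.30 in knockout.

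The 3 probes annotated to both Gng5 and Gng5-ps cannot be assigned to either and did not behave alike. Gng5 is a gamma subunit of many tissues and of neural progenitors. The first gave 12.25, 12.34 and 11.90 on the wild-type arrays, against 12.24, 11.56 and 11.83 on the knockout arrays, a difference of -0.29 (95% interval from -0.68 to 0.10; limma adjusted p = 0.702 over every probe). The second was nearly flat, at 11.60, 11.59 and 11.67 against 11.58, 11.61 and 11.58, with a difference of -0.03 and a 95% interval from -0.17 to 0.11. The dimmest read 7.16, 6.94 and 6.72 against 6.97, 6.35 and 6.89, a difference of -0.21. Knockout array 5 was the lowest of the 6 on the first and the dimmest, but not on the second. Without it their differences were -0.13 and -0.01, and without knockout array 4 they were -0.47 and -0.32.

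Over all 16 member probes, tested among all 45037 probes, 0 passed, against 10 of all probes, or 0.0222%. None had an unadjusted limma p under 0.05 (7.61% of all probes) and in none did the genotypes not overlap (13.6% of all probes). Values were higher in knockout for 11 probes and lower for 5, with a median of 0.04 against 0.01 over all probes. Probes of 1 gene share their transcript and are not independent. Without knockout array 6, which differed in sex-linked signal, the 9 gene differences ran from -0.11 to 0.12. Of these 8 were higher and none passed (lowest limma adjusted p = 0.918). The share of all genes with higher values was not counted in that fit.

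The photoreceptor gammas gave dim signal. The 4 probes of Gngt1, the rod gamma subunit and the neighbour of Gng11 in gene order, had wild-type means of 4.13, 3.49, 2.97 and 2.56, between the 0.42nd and the 23.0th percentile of all probes. Gngt1 was below the filter on dim probes, and no detection calls were used here. Gngt2, the cone gamma subunit, gave 5.23, 5.39 and 5.36 on the wild-type arrays, against 5.05, 5.34 and 5.09 on the knockout arrays, a difference of -0.17 (limma adjusted p = 0.664). The genotypes overlapped.

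In the rest of the G protein machinery 1 gene passed, Gnb5 itself. Of 75 listed genes besides the members 65 were tested, 0 rose, 1 fell and 64 did not pass, where 0.0355% of all genes passed. An unadjusted limma p under 0.05 was found for 4 of the 65, Gnb5 among them, and for 8.56% of all genes. The log2 signal of Gnb5, by its brightest probe, fell by 5.35, with an SE of 0.18 and a limma adjusted p of 4.38e-06. The wild-type mean was 8.67 ± 0.15 and the knockout mean 3.32 ± 0.34 (both SD, n = 3). This knockout mean lay below the cut of the filter on dim probes, 4.70. A dimmer Gnb5 probe averaged 4.88 in wild type and 4.24 in knockout. Its difference of -0.64 did not pass (limma adjusted p = 0.288 over every probe). The conventional beta subunits, which pair with the gammas, did not pass: Gnb1, the brightest, read 13.45 ± 0.01 in wild type and 13.43 ± 0.02 in knockout (SD, n = 3 each), with a 95% interval from -0.10 to 0.06. Gnb4 had a difference of -0.02 (95% interval from -0.16 to 0.11), Gnb2 one of 0.22 (from -0.09 to 0.54) and Gnb3, dim at 4.96 in wild type, one of 0.14 (from -0.14 to 0.42). Gnb2 had 0.11 without knockout array 5 and Gnb3 0.06 without wild-type array 3. With the mean of all its probes Gnb1 had a value of 0.17 (limma adjusted p = 0.580).

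**Figure D4:**
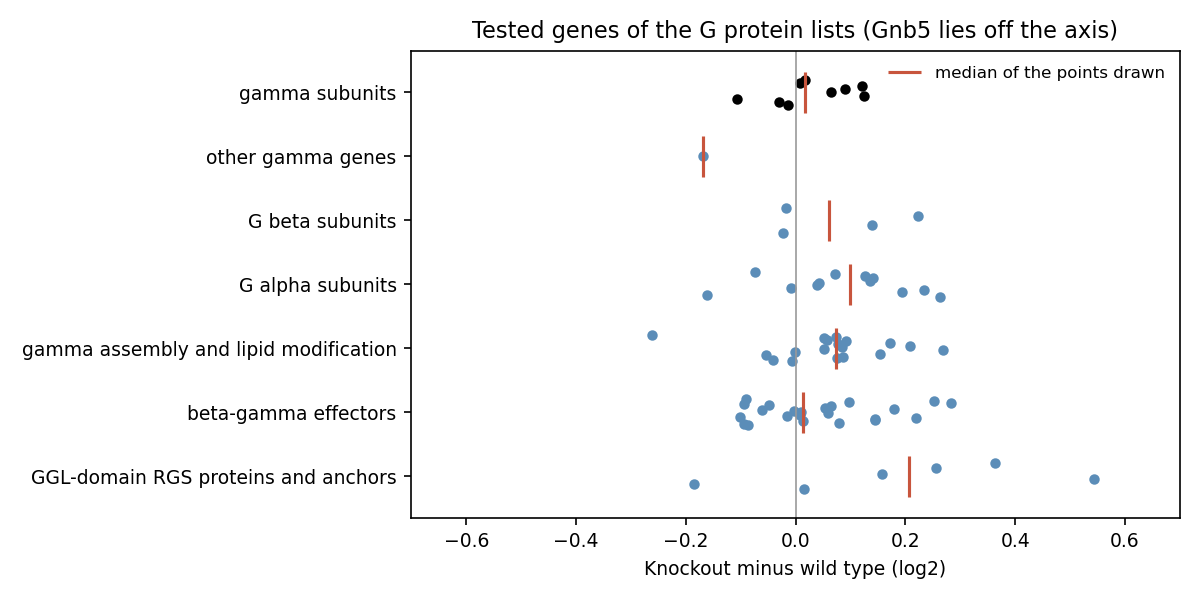
Difference between Gb5 knockout and wild type (x axis, log2) of each tested gene (points) in the gamma subunits and the other G protein lists (y axis), with the median of the drawn points as a line. Gnb5, at -5.35, lies off the axis and is left out of the line for beta subunits. The gamma subunits lie between -0.11 and 0.12.

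Among alpha subunits (12 tested of 16) none passed, and the median difference was 0.10. The 3 members of smallest p had differences of 0.23 (Gna11, of the Gq family), -0.16 (Gna13) and 0.14 (Gnao1, the main alpha subunit of brain), with limma adjusted p values of 0.599, 0.624 and 0.667. Single arrays moved each: Gna11 had 0.12 without knockout array 5, Gnao1 0.05 without wild-type array 2, and Gna13 -0.08 without knockout array 4 and -0.26 without knockout array 6. Gna13 had the opposite sign through another of its probes (a difference of 0.59; limma adjusted p = 0.399). The list of folding and gamma lipid genes (18 tested of 18) had a median of 0.07 with none passing. Most of its genes fold the beta-gamma pair, attach the gamma lipid or process the end of the protein that carries it. The Ric8 genes do none of these. The 3 members of smallest p were the alpha subunit chaperone Ric8b (a difference of 0.27; limma adjusted p = 0.574), in which all knockout arrays lay above the wild-type arrays (the genotypes did not overlap in 14.9% of all genes), and the chaperonin subunits Cct7 (0.21) and Cct5 (0.17). With the mean of all its probes Ric8b had a difference of 0.08 (limma adjusted p = 0.788). Cct7 had 0.13 without wild-type array 1, and Cct5 0.08 without that array and 0.05 without knockout array 6.

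Effectors of beta-gamma (23 tested of 25) had a median of 0.01 with none passing. Those of smallest p had differences of 0.22 (Pik3r5, a regulator of phosphoinositide kinase gamma), 0.25 (Kcnj5, a potassium channel subunit) and 0.14 (Cacna1a, the P/Q calcium channel; 0.07 without knockout array 6), with limma adjusted p values of 0.627, 0.630 and 0.658. With knockout array 5 left out, Kcnj5 had 0.10 and Cacna1a 0.22. With wild-type array 1 left out, Kcnj5 had 0.15. Pik3r5 had 0.13 when either wild-type array 2 or knockout array 4 was left out. Its wild-type mean of 4.69 was under the cut of the filter on dim probes, 4.70, and its knockout mean was 4.91. Pik3r5 was thus tested only because of its higher knockout values, and its difference is not read as a result. Kcnj5 was also dim, at 5.49 in wild type. Genes of the GGL-domain RGS proteins and their anchors (6 tested of 8) had a median of 0.21, the largest of these lists, with none passing. Over the list 5 genes had higher values in knockout and 1 lower. Of the 3 members of smallest p, Rgs11 read 0.54 higher (95% interval from 0.11 to 0.98), Rgs7 0.26 (from 0.01 to 0.50) and Rgs6 0.36 (from -0.06 to 0.78). Their limma adjusted p values were 0.554, 0.574 and 0.608. Rgs11 and Rgs6 were dim, at 5.89 and 5.14 in wild type. In Rgs11 and Rgs7 the genotypes did not overlap, as in 14.9% of all genes. Without knockout array 6 the differences were 0.40, 0.25 and 0.46. Rgs6 had 0.16 without knockout array 5 and 0.23 with the mean of its probes, and Rgs11 0.37 without wild-type array 1. The difference between these genes and the conventional gammas was not tested.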

How the data were processed

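RNA from 3 wild-type and 3 Gb5-deficient mice was labelled as biotinylated cRNA and hybridised to 1 array each, per the labels' protocols. The authors' deposited table holds log2 signals per probe. RMA and Partek are named in the submitters' processing notes, with no version. RMA corrects background, quantile-normalizes arrays and summarises probe sets. Neither scanner output nor scan times were analysed here, and no batch was tested. The build behind the values is not given in the sources used here.

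Of 45101 probes, 64 controls were left out; 34945 had 1 annotated gene, 932 several and 9160 none. Symbols were updated through Entrez identifiers (34741 matched; RefSeq, GRCm38.p6). For each of 18193 genes the probe of highest mean over the 6 arrays was taken, and kept if above the 30th percentile of probe means (4.70), which left 14075. Genotypes were compared with limma 3.58.1 in R 4.3.3 (linear model, empirical Bayes with intensity trend, two-sided, Benjamini-Hochberg over all genes, threshold 0.05), and again over all 45037 probes without a filter. The fit was run on simulated data with independent noise and with changes larger than any gamma gene difference. Effects shared by the genes of 1 array were not simulated, and the outcome is not used as support here. With 3 against 3 arrays an exact permutation test cannot go below 0.10, so none was run.

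The members and lists were chosen with earlier results of these data known. Named genes were all members, Gnb5, Xist, Eif2s3y, the beta subunits, the 3 genes of smallest p in each other list, up to 2 markers by wild-type signal, and the 3 genes most like the member of widest range; Eomes, Calb2, Chtf18, Bscl2 and Dnajc25 are named beside values. Alternatives covered the filter, normalization, probe choice, variance model, threshold and each array left out.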

Additional observations from a re-analysis of the deposited data

How the results depend on the processing

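No gamma gene or probe passed under any alternative run: 0 in every fit, whatever the filter, normalization, probe choice, variance model, array weights, an adjusted p of 0.10 or any array left out (range 0 to 0). Of 135 gene values over 15 alternatives each, 116 kept their sign and 19 did not. Gng10, Gng11 and Gng7 kept theirs in all 15. The changed filters, the fit with no intensity trend and the robust fit used the same values, so no sign could change in them. For these 3 genes, with 1 probe each, the choice of probe could not change the sign either. Gng13 was 0.0081 after a second quantile normalization, 0.063 with the mean of its probes, 0.14 with its most variable probe and 0.0064 with array weights. Gng3 was -0.017 with array medians subtracted and -0.032 with array weights, Gng2 -0.0076 with array medians subtracted and Gng8 -0.052 with array weights. With single arrays left out Gng13 ran from -0.071 to 0.049, Gng3 from -0.054 to 0.076, Gng2 from -0.014 to 0.066, Gng12 from -0.126 to 0.036, Gng4 from -0.035 to 0.257 and Gng8 from -0.095 to 0.159. Among other probes, the Gng2 probe with a wild-type mean of 9.75 was -0.011 with array weights, and the second Gng12 probe -0.012 after a second quantile normalization, -0.018 with medians subtracted and -0.015 with weights. With single arrays left out the Gng2 probes with wild-type means of 9.75 and 8.77 ran from -0.084 to 0.151 and from -0.026 to 0.173, the Gng4 probes with wild-type means of 9.66 and 5.80 from -0.018 to 0.278 and from -0.217 to 0.133, and the second Gng12 probe from -0.042 to 0.046. The cause was not tested. Gnb1 was 0.173 and Gna13 0.068 with the mean of their probes, and Gna13 was 0.593 and Gnb4 0.027 with the most variable probe. Gnb4 ran from -0.050 to 0.0092 with arrays left out. Gnb5 kept its call, from -5.51 to -5.17 with arrays left out; at the 50th percentile filter it was not tested, so the count of passing listed genes was 0, and otherwise 1. The median wild-type signal of the 9 genes ran from 11.55 to 11.67 with a wild-type array left out. Over all genes the count of calls was 5, and 10 without wild-type array 1, 3 without 2 or 3, 8 without knockout array 4 and 2 without 6. Over all probes it was 10, and 24 without wild-type array 1, 6 without 3, 16 without knockout array 4 and 6 without 6. It was 3 genes and 4 probes at the 50th percentile filter, 8 genes with no filter, and 17, 16 and 15 probes with medians subtracted, array weights and the robust fit. No paired analysis was possible because the genotypes share no replicate number. A change of pseudocount was not run because the values are log2.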
